A study of Sus scrofa with 6 samples.

Results

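The miRNAs miR-26a and miR-328 were followed in left atrial (LA) tissue of pigs with and without induced paroxysms of atrial fibrillation (AF). They were taken as every probe of the miRNA array that carries the name ssc-miR-26a or ssc-miR-328, with or without an arm suffix. This gave 2 of the 322 pig miRNA probes, 1 for each miRNA. Total RNA of 6 animals was hybridized to 1-colour (Cy3) arrays, with 1 array per animal. The 3 paced animals (the PAF group in the sample labels) had received burst pacing of the right atrium, after a beta blocker, that ended in short self-terminating AF episodes. The 3 sham animals (the sham-control group) were operated without burst pacing, and the sources do not say whether they received the beta blocker. Tissue was harvested about a day after pacing, in normal rhythm. The animals were Large white pigs that the study describes as some months old, whereas the labels describe neonatal piglets.

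A miRNA binds a messenger RNA mainly through its seed, bases 2 to 8 from the 5′ end, and lowers its translation or stability. In the atrium miR-26a is known as a repressor of KCNJ2, the gene of an inward rectifier potassium channel that sets the resting potential and the end of repolarization. In the same tissue miR-328 is known as a repressor of CACNA1C and CACNB1, which encode subunits of the L-type calcium channel that carries the plateau current. Loss of miR-26a and gain of miR-328 have both been described in established AF. The comparison asks whether either was altered a day after brief AF.

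The target sequences that the array files give for both probes are shown because the seed decides which channel genes each miRNA can pair with, and the capitals mark the seed.
miR-26a: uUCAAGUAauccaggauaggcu
miR-328: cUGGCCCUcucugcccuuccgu
Both targets are 22 bases long. The share of G and C was 40.9% in miR-26a and 68.2% in miR-328, with a median of 47.6% over the 322 probes. No other probe shared the seed of either miRNA, so that 0 seed relatives could be set beside them. The other target nearest in sequence differed from miR-26a by 9 edits (substitutions, insertions or deletions), and the same number held for miR-328. The longest run of bases shared with any other target was 7 for miR-26a and 8 for miR-328. In the Sscrofa11.1 gene table the miR-26a gene lies within the span of CTDSP2, a phosphatase gene, with AVIL also within 10 kb. The miR-328 gene lies within the span of ELMO3, with E2F4 and LRRC29 within 10 kb. Strand and exon structure were not used here.

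Each array held 3968 spots, of which 2898 were 9 repeat spots for each miRNA probe and 786 were empty. The scanner value of a spot is the median intensity of its pixels, with the background included. The median of the empty spots lay between 64.7 and 214 units in sham and between 242.5 and 399 units in paced arrays, so that background and group moved together. Signal was called well above background where the repeat spots of a probe had a median higher than that of the empty spots plus 3 of their SD, which 104 probes met on all 6 arrays. Of the 7 probes for the muscle miRNAs miR-1, miR-133a, miR-133b, miR-208b and miR-499, 5 met this on all arrays, whereas the liver miRNA miR-122 met it on none. Of the 24 probes for muscle, erythroid, leukocyte, endothelial, smooth muscle, liver, epithelial and neural miRNAs, 5 were without overlap between paced and sham animals (20.8%, against 17.4% of all probes). The log2 difference was -0.70 for the erythroid miR-486, -0.32 for the smooth muscle miR-143-3p and -0.21 for miR-128, and it was 0.37 and 0.16 for miR-126-5p and miR-205, which did not stand above the background on any array. Other probes of the same lists varied: miR-451 was at -0.37, miR-144 at 0.0065, miR-145-5p at -0.12 and miR-126-3p at -0.02. With miR-128 on the neural list, miR-9 and miR-124a were both at 0.12. Like miR-144, miR-9 and miR-124a did not stand above the background on any array. Of the 24 differences, 11 were positive and 13 negative. The part of other cell types in the values below was not tested, and in whole tissue fewer cells of a type and less RNA per cell cannot be told apart.

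The probe of miR-26a gave a strong signal in every animal. The median of its repeat spots was 19772, 14530 and 16441 units in sham replicates 1, 2 and 3, against 12786, 16438 and 13385 units in the paced replicates. Before normalization the highest animal was thus a sham and the lowest a paced one, and the groups overlapped. The signal was from 32.1 times (paced replicate 1) to 225 times (sham replicate 2) the empty-spot median, and the background made up at most 3.12% of it. The coefficient of variation over the repeat spots of an array lay between 2.23% and 7.09%. The 3 spots in the upper rows of the array were on average brighter than the 3 in the lower rows on all 6 arrays, as held for 80 of those 104 probes. In sham replicate 2 these means were 15572 and 13244 units. The repeat spots of every probe are spread over upper, middle and lower rows.

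The probe of miR-328 lay much closer to the background. The median of its repeat spots was 734, 444 and 389 units in the sham replicates and 555, 679 and 512 units in the paced replicates. With the empty-spot median taken off, 520, 379 and 272 units remained in sham and 156, 436 and 250.3 units in paced replicates 1, 2 and 3. The order of the groups therefore changed with the background: as scanned, the sham mean was 522 ± 186 (SD, n = 3) and the paced mean 582 ± 86.7 (SD, n = 3), but 390.2 ± 125 and 281 ± 143 (SD, n = 3 in each group) after subtraction. In both forms the groups overlapped. The background made up between 14.6% and 35.7% of the signal on 4 arrays, 51.1% in paced replicate 3 and 71.9% in paced replicate 1.

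The probe of miR-328 was well above background on all 6 arrays, narrowly so in paced replicate 1. There the spot median of 555 units stood against a limit of 549.6 units, and the repeat spots ran from 425 to 580 units, on both sides of it. The call was the same when each spot was set against its 15 nearest empty spots. The coefficient of variation over the repeat spots lay between 2.97% (paced replicate 3) and 10.7% (sham replicate 1). In sham replicate 1 the spots of the upper rows averaged 602 units, below the 758 and 735 units of the middle and lower rows.

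**Figure D1:**
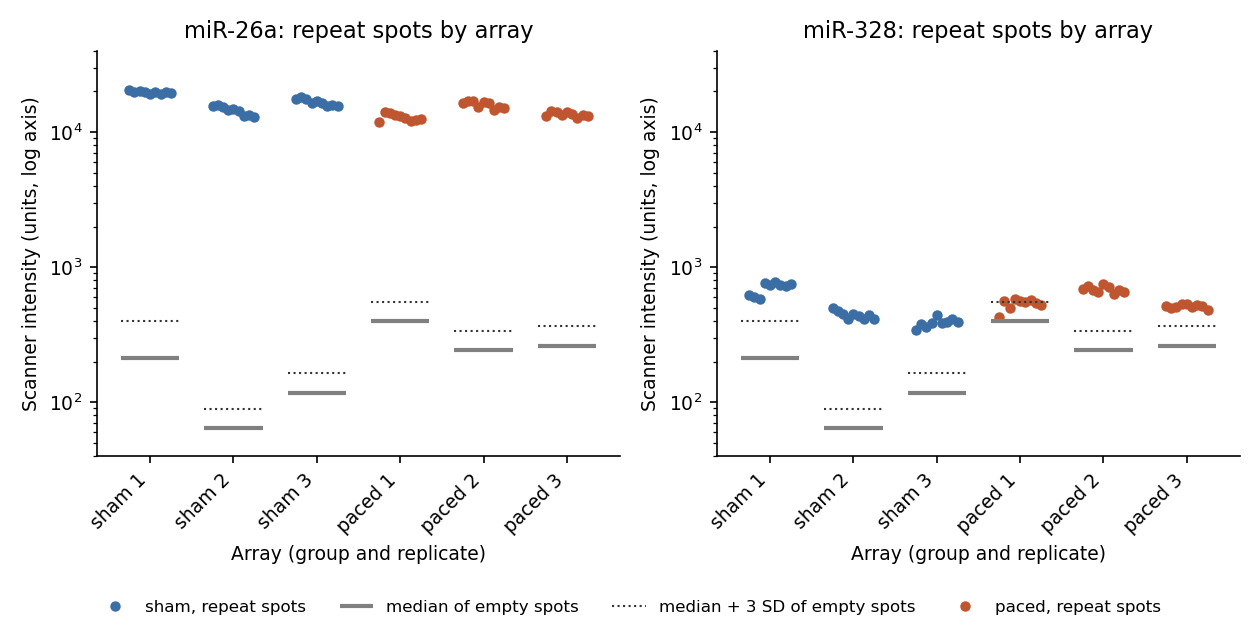
Scanner intensity (units, log axis) of the 9 repeat spots of miR-26a and miR-328 on each array, drawn from the top row of the array to the bottom row, with the median of the empty spots (grey bar) and that median plus 3 SD (dotted). The miR-26a spots lie far above the empty spots on all 6 arrays, whereas the miR-328 spots of paced replicate 1 lie around the dotted limit.

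After normexp background correction (offset 50), quantile normalization between arrays and averaging of the repeat spots, the log2 value of miR-26a was 13.85, 13.94 and 13.88 in sham replicates 1, 2 and 3. The paced replicates had values of 13.95, 13.84 and 13.89 in the same order. The animals of each group thus covered the same narrow range. The sham mean was 13.89 ± 0.04 (SD, n = 3) and the paced mean 13.89 ± 0.05 (SD, n = 3). Paced minus sham came to -0.0015 (SE 0.07, limma over all 322 probes, adjusted p = 0.997), with a 95% interval from -0.16 to 0.15. A difference between the groups was not detectable for miR-26a, and the interval corresponds to a fold of 0.896 to 1.11 on these normalized values. Doubling the miR-26a signal would give 1.00 before quantile normalization. After it, the highest probes, miR-133a-3p and miR-133b, had sham means of only 14.52 and 14.50. A doubling would therefore come out smaller here, by an amount that was not computed.

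Quantile normalization gives the brightest spots of all arrays nearly the same values, which narrows the spread of a bright probe. Without normalization the miR-26a values were 14.27, 13.82 and 14.02 in the sham and 13.63, 13.95 and 13.71 in the paced replicates. The SD was then 0.22 in sham and 0.17 in paced animals, with a difference of -0.27 between the groups (SE 0.33, adjusted p = 0.633 by limma). In that setting the median difference was -0.25 over the 104 probes and 0.27 over all probes, so that relative to these medians miR-26a was at -0.023 and -0.54. Scaled to the reference miRNAs miR-103, miR-107 and miR-191, the difference of miR-26a was 0.03 (SE 0.13, adjusted p = 0.897), and scaled to the 5S rRNA control spots it was -0.11 (SE 0.27, adjusted p = 0.818). The sign depended on the setting, and none of these differences exceeded its standard error.

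The log2 value of miR-328 was 8.82, 9.12 and 8.65 in the sham and 8.68, 8.89 and 8.61 in the paced replicates, in the order 1, 2 and 3. Sham replicate 2 was the highest animal and paced replicate 3 the lowest, while the other 4 animals of both groups were interleaved. The sham mean was 8.86 ± 0.24 (SD, n = 3) and the paced mean 8.73 ± 0.15 (SD, n = 3). Their difference of -0.14 (SE 0.14, adjusted p = 0.750 by limma) did not exceed the spread between animals, and its 95% interval ran from -0.46 to 0.19. With the offset of 50, halving or doubling the signal above the offset would give -0.85 or 0.92, both outside this interval. That signal still held part of the background: the sham mean was 8.73 with an offset of 10 and 8.33 with plain subtraction. A halving or doubling of miR-328 alone would thus give a smaller change, which was not computed. The pooled SD of miR-328 within the groups was 0.20, at place 68 from the lowest among the 104 probes, against 0.05 and place 4 for miR-26a.

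In the quantile-normalized values, the difference of miR-328 moved more than that of miR-26a when single animals were left out. Without sham replicate 2 the difference was -0.0078 (SE 0.12, limma, adjusted p = 0.996), and without sham replicate 3 it was -0.24 (SE 0.14, adjusted p = 0.679). It was largest in size with plain subtraction of the background, at -0.27 (SE 0.23, adjusted p = 0.580), and -0.22 (SE 0.14, adjusted p = 0.568) when the nearest empty spots served as background. It turned positive when the arrays were scaled to miR-103, miR-107 and miR-191, at 0.14 (SE 0.16, adjusted p = 0.510), where the median difference was 0.57 over all probes and 0.05 over the 104 probes. Relative to these medians it was at -0.43 and 0.08, so that its direction depended on the probes it was set against. In the intensities processed by the authors, miR-328 was 388, 433 and 292 in the sham and 274, 382 and 279.9 in the paced replicates, which averaged 371 ± 71.7 (SD, n = 3) and 312 ± 60.9 (SD, n = 3). These groups overlapped as well (exact permutation test, two-sided, p = 0.2, where 0.1 is the smallest possible). For miR-26a the same intensities averaged 15062 ± 604 in sham and 15228 ± 762 (SD, n = 3 in each group) in paced animals.

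**Figure D2:**
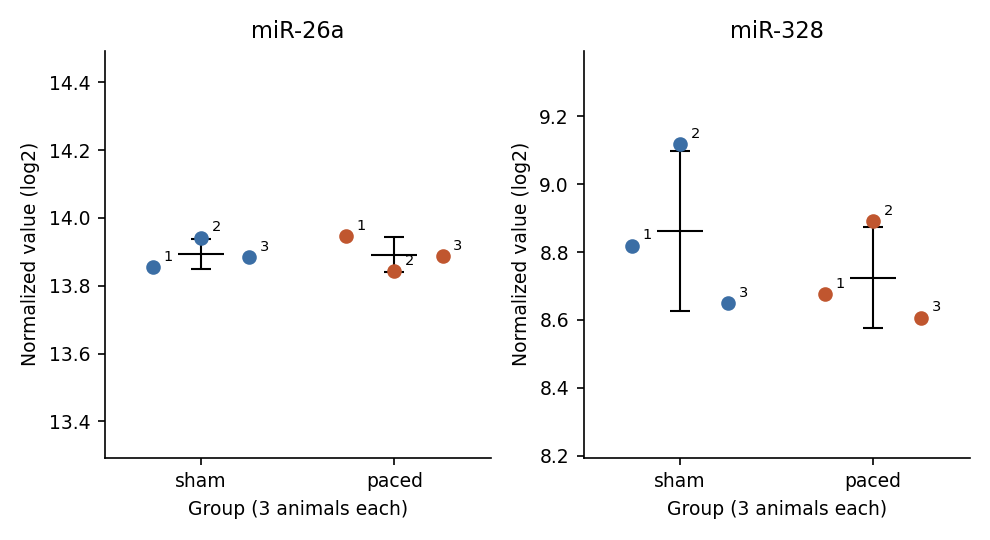
Normalized log2 value of miR-26a and miR-328 in each animal (points, numbered by replicate) with the group mean and SD (bars), on axes of equal height. The miR-26a values of both groups lie between 13.84 and 13.95, and the miR-328 values spread from 8.61 to 9.12 with sham replicate 2 at the top.

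Of the 2 miRNAs, 0 passed the adjusted threshold of 0.05, as did 0% of all 322 probes. At the study's unadjusted threshold of 0.05, 0 of the 2 and 10.6% of all probes (34, by limma) were called. Values that did not overlap between paced and sham animals were seen in 0 of the 2 and in 17.4% of all probes. The size of the difference was smaller than that of miR-26a in 4 of the 322 probes and smaller than that of miR-328 in 214.

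Whether both miRNAs shifted by the same amount was tested on their difference within each array. The log2 value of miR-26a minus that of miR-328 was 5.03, 4.82 and 5.23 in the sham and 5.27, 4.95 and 5.28 in the paced replicates. Paced replicates 1 and 3 were above all sham animals, and paced replicate 2 was below 2 of them. The mean went from 5.03 ± 0.21 (SD, n = 3) in sham to 5.17 ± 0.19 (SD, n = 3) in the paced group, a change of 0.14 (exact permutation test, two-sided, p = 0.5). With 3 animals against 3 the smallest p of this test is 0.1, so it could not have passed 0.05 at any size of shift. The change was -0.11 (exact permutation test, p = 0.8) with no normalization, and scaling each array by a single factor leaves this value as it is. It was 0.17 with cyclic loess (exact permutation test, p = 0.5) and 0.26 in the processed values of the authors (exact permutation test, p = 0.3), so that its sign depended on the normalization.

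**Figure D3:**
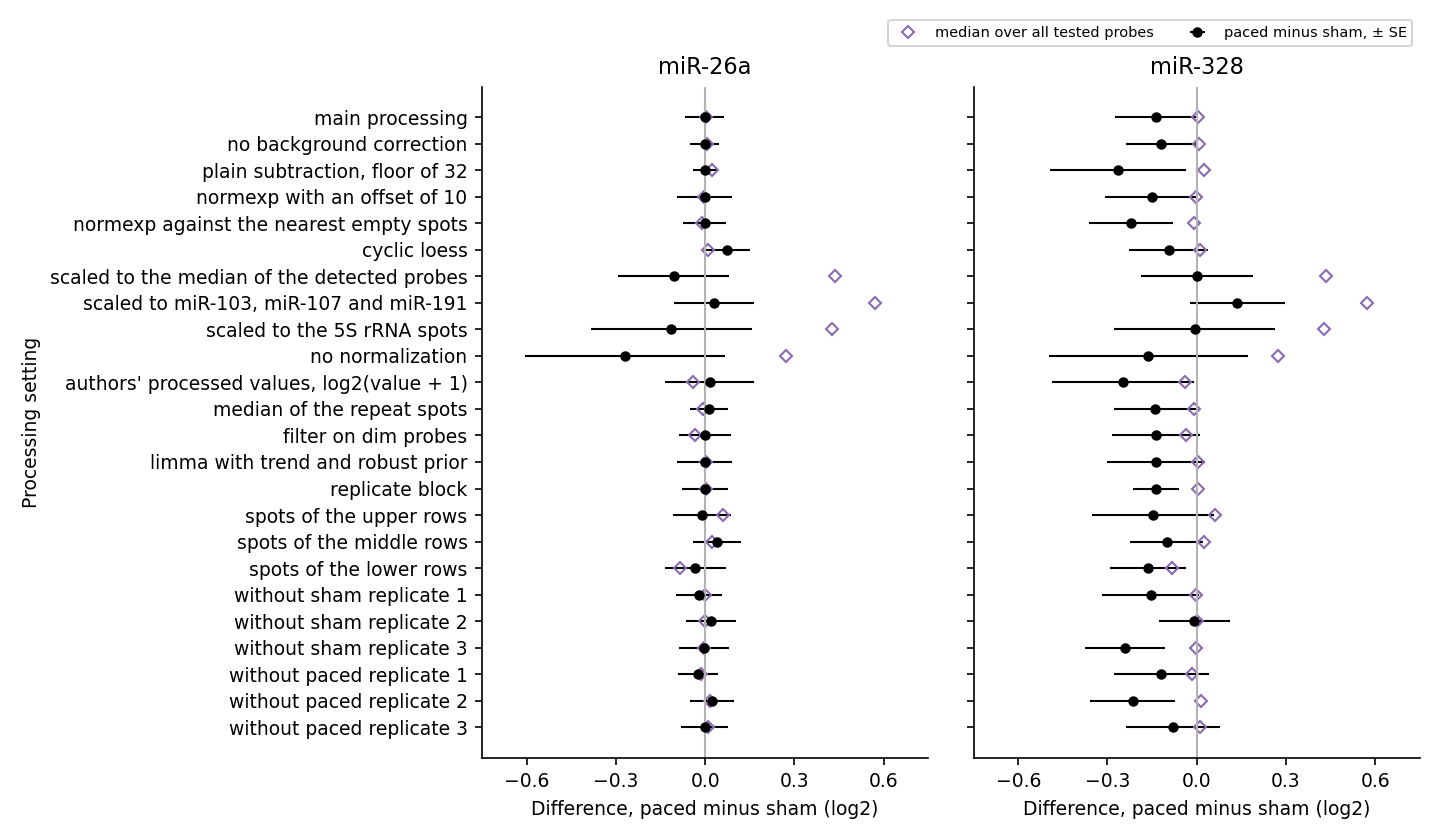
Difference between paced and sham animals in log2 value for miR-26a and miR-328 under each processing setting that gives a standard error (points with SE bars), with the median difference over all tested probes (diamonds). The miR-26a points stay between -0.27 and 0.07 and the miR-328 points between -0.27 and 0.14, while the diamonds reach 0.57 in settings that do not equalize the arrays' distributions.

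Among the other 103 of the 104 probes, the pattern over the 6 arrays was compared after each probe was centred on its own mean. The measure is the root mean square difference of log2 values. For miR-26a it was smallest to miR-125b (0.04), miR-133b (0.04) and miR-133a-3p (0.04), against a median of 0.15 over the 103 probes. The paced minus sham difference of miR-125b was -0.02 (SE 0.06, limma, adjusted p = 0.910). All 3 are bright probes with little spread after quantile normalization, as miR-26a is. For miR-328 it was smallest to miR-339-5p (0.09), miR-145-5p (0.10) and miR-339 (0.11), against a median of 0.23. In miR-339-5p, as in miR-328, sham replicate 2 was the highest sham (10.12) and paced replicate 2 the highest paced animal (10.03). Its difference between the groups was -0.02 (SE 0.10, limma, adjusted p = 0.963). The smooth muscle miRNA miR-145-5p differed by -0.12 (SE 0.10, limma, adjusted p = 0.723), and in it sham replicate 2 was likewise the highest animal (13.88). These probes were chosen for their likeness to miR-328 on the same arrays, so a shared highest animal is not an independent observation.

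Other miRNAs described as regulators of cardiac ion channel, connexin or calcium handling genes were taken as a list of 13 names. Of these, 9 had a probe, which gave 12 probes with both arms counted, and miR-223, miR-25, miR-93 and miR-106b were not analysed here. Of the 12 probes, 0 rose and 0 fell past the adjusted threshold, beside 0% of all probes. At the unadjusted threshold limma called 0 of the 12, beside 10.6% of all probes. The methods' t-test also called 0 of the 12 at that threshold, beside 39 of all 322 probes. Without paced replicate 1 the adjusted count was 1 (miR-1), beside 9 of all 322 probes, and the unadjusted count was 2 (miR-1 and miR-499-5p), beside 67. Without paced replicate 2 the adjusted count was 1 (miR-21), which was the 1 call over all probes. Values were without overlap between the groups in 0 of the 12, beside 17.4% of all probes. The median difference was 0.06 (range -0.34 to 0.37), beside 0.0031 over all 322 probes. The difference was positive in 8 and negative in 4 of the 12, beside 165 and 157 of all 322 probes. Among the 104 probes it was positive in 41 and negative in 63. The positive ones of the list include miR-155-3p (0.09), miR-212 (0.03) and miR-499-3p (0.11), whose signal failed the background criterion in every animal. They also include miR-133a-3p, at only 0.0041. The count of signs therefore does not show a rise of the list.

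The muscle miRNA miR-1, a known repressor of KCNJ2 and of the connexin gene GJA1, differed by 0.37 (SE 0.32, limma, adjusted p = 0.725). For miR-21, described as a regulator of calcium channel subunits, the difference was also 0.37 (SE 0.28, adjusted p = 0.670). The 5p arm miR-133a-5p had the lowest value, -0.34 (SE 0.16, adjusted p = 0.470), while miR-133a-3p, a known repressor of KCNH2 and HCN2, was at 0.0041 (SE 0.06, adjusted p = 0.986). With miR-133b, at -0.0041, miR-133a-3p held the highest values on all 6 arrays. Quantile normalization leaves such probes little room to differ, so their values here cannot show whether they changed. For miR-499-5p, described as a repressor of the potassium channel gene KCNN3, it was 0.17 (SE 0.19, adjusted p = 0.778). On 0 of the 6 arrays was the other arm, miR-499-3p, well above background. Quantile normalization also narrows the spread of the bright miR-26a. In this processing the difference of miR-26a was closer to 0 than that of any of the 12 probes, and that of miR-328 lay within their range. The reference miRNAs miR-103, miR-107 and miR-191 had differences between 0.0077 and 0.02.

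**Figure D4:**
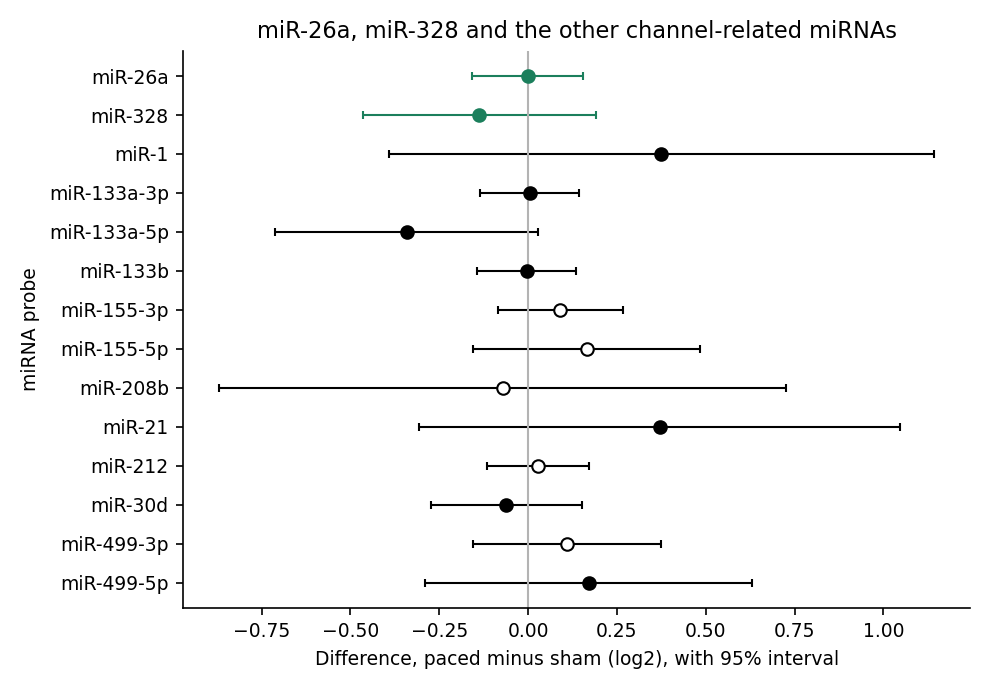
Difference between paced and sham animals in normalized log2 value with its 95% interval from limma, for miR-26a and miR-328 (green) and for the 12 probes of the channel-related list (black). Filled points mark probes well above background on all 6 arrays, and the intervals of all 14 probes include 0.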

How the data were processed

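LA RNA of 3 sham and 3 paced pigs was analysed, grouped by the sample labels. The deposited scanner files hold the median intensity of each spot, not corrected for background and not normalized. The authors' processed intensity values, background-removed and normalized by steps not given in the sources used here, served as an alternative.

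Scanner values of all spots were corrected with normexp (offset 50) in limma 3.58.1 (R 4.3.3). The spots of the miRNA probes, without controls, were log2-transformed, quantile-normalized and averaged per probe. Groups were compared with lmFit and eBayes over 322 probes, with Benjamini-Hochberg adjustment. The number of arrays limits the precision. Normalization and background correction can change the values, so other settings were tried. They were: no correction, subtraction (floor 32), an offset of 10, local background, other scalings, the authors' values on the log2(value + 1) scale, spot medians, a filter on dim probes, the methods' t-test, a trended robust prior, a block for the replicate number, and each animal left out. The upper, middle or lower spots of a probe alone were added after the data were seen.

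The members, lists and tests were chosen with earlier results of these data known. Described in full were miR-26a and miR-328. Others were named by rule: probes with their seed, the 3 probes of most similar pattern, probes of the channel list past the unadjusted threshold with miR-1, miR-133a, miR-21 and miR-499, and the reference miRNAs. The extreme and arm-specific values of the list, the 5 marker miRNAs without overlap and the marker probes set beside them were named after they were seen.

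The steps were tested on 20 simulated sets with 30 of 322 probes changed by 1 on the log2 scale (SD between animals 0.15). The changed probes were drawn only from the brighter probes, by mean signal above the empty spots. At the adjusted threshold all changed probes were called (100%), with 1.40% of the unchanged ones. Among the 76 unchanged probes of the brighter kind, 2.7 were called on average. Recovery of a change in dim probes was not tested. The simulated signal had the same scale on every array, with as many probes raised as lowered, which need not hold for the real arrays. Its SD of 0.15 was below the pooled SD of miR-328 (0.20), so recovery in the real data can be lower. The median change came out at 0.87. Python 3.11.15 with matplotlib 3.10.9 drew the figures.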

Additional observations from a re-analysis of the deposited data

How the results depend on the processing

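The difference of miR-26a took the opposite sign, above 0, with cyclic loess (0.075), scaling to miR-103, miR-107 and miR-191 (0.030), the processed values of the authors (0.015 in log2 units, 166 intensity units in the methods' t-test), the median of the repeat spots (0.014) and the spots of the middle rows (0.039). With 1 animal left out it lay between -0.023 and 0.023. That of miR-328 became positive under scaling to the detected probes' median (0.00071) or to miR-103, miR-107 and miR-191 (0.14), and lay between -0.24 and -0.0078 with 1 animal left out. The within-array difference of both turned to -0.11 under these 2 scalings, with the 5S rRNA scaling and without normalization, and was 0.026 to 0.24 with 1 animal left out. Over all settings the adjusted p was 0.633 to 0.998 for miR-26a and 0.508 to 0.997 for miR-328, so neither passed the threshold in any.

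Under scaling to the detected probes' median, 5 probes of the channel list passed the adjusted threshold, and 5 the unadjusted one. Scaled to the reference miRNAs, 4 and 4 did. Unadjusted counts were 3 with the 5S rRNA scaling, 1 with local background and 1 with cyclic loess. In the detected-median, reference and 5S rRNA scalings the unadjusted calls included miR-155-3p, miR-212 and miR-499-3p. None of these probes was well above background on any array. With 1 animal left out, 0 to 1 (adjusted) and 0 to 2 (unadjusted) passed. Over all probes these scalings gave adjusted counts of 171, 200 and 8 (5S rRNA) and unadjusted counts of 181, 201 and 119, with the median probe shifted by 0.44, 0.57 and 0.43. The unadjusted count was 15 without normalization and 5 with the filter on dim probes. With 1 animal left out, 0 to 9 (adjusted) and 19 to 67 (unadjusted) passed. The cause of these changes was not tested.

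The study compared the groups unpaired. Deviations of same-numbered animals correlated by 0.17, -0.01 and 0.21 over 104 probes, and 4 of 6 arrays correlated best with their own number. These values do not settle whether same-numbered arrays share an effect. With the replicate number as a block the difference stayed -0.14 for miR-328 (SE 0.08, adjusted p = 0.508) and -0.0015 for miR-26a (SE 0.08, adjusted p = 0.997), and 33 probes passed the unadjusted threshold. The background made up 71.9% of the miR-328 signal in paced replicate 1, and over the settings for background correction the difference of miR-328 lay between -0.27 and -0.12.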
